A study of Mus musculus with 6 samples.

Results

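Broad domains of 5-hydroxymethylcytosine (5hmC) were examined in brain DNA of C57BL/6 mice, 3 with ischemic injury (I/R) and 3 controls. The regions enriched for 5hmC (peaks) of both groups were pooled over chromosomes 1 to 19, and peaks that overlapped by 1 bp or more were merged. A merged region of 10 kb or more was called a broad domain, and 654 of the 54593 merged regions (1.20%, exact binomial 95% interval 1.11 to 1.29%) were of this kind. The pool held 20555 control-list and 53341 injury-list peaks, in 1 list per group, with positions on the mouse mm9 genome. The tissue was brain in both groups, with no part of the brain or cell type named, so a change in the makeup of the tissue and a change of 5hmC per cell cannot be told apart. The sources used here do not state how old the mice were, their sex or the time after injury. No values of single mice were analysed here, so the variation among mice cannot be seen and no difference between the lists could be tested. How many reads lie behind each list is also unknown. The intervals cover counting error only, treat each domain, peak or edge as independent, and are too narrow for domains that lie side by side.

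5hmC is made from 5-methylcytosine by the TET enzymes, either as a step toward removal of the methyl mark or as a mark that stays. In neurons it is abundant, and it tends to lie within the transcribed parts of active genes and at enhancers rather than in unexpressed DNA. The hMe-Seal assay attaches a modified sugar to 5hmC so that fragments carrying it can be pulled down and sequenced, and a peak is a stretch where more fragments were found than the peak caller's background model predicts. A domain as used here is a union of such stretches from both groups. It need not be continuous in either list, and it is known by position alone, since no mm9 gene annotation or genome sequence was used.

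Domains were chosen by the length of the merged peaks, and the bases covered by each list enter that length, so these values are a description. The 654 domains (exact Poisson 95% interval 605 to 706) covered 8.78 Mb, or 5.81% of the 151.0 Mb in all merged regions. This share followed the settings, from 1.78% at a shortest length of 15 kb and 9.62% at 8 kb to 22.1% with peaks up to 1 kb apart merged. Their median length was 12.1 kb, with quartiles of 10.9 and 14.3 kb, and 10% were longer than 17.7 kb. A length of 15 kb was reached by 136 domains, 20 kb by 48 and 30 kb by 4. The longest, at 79.7 kb, was 2.37 times as long as the next, at 33.6 kb. The number of domains rests on how peaks are joined: with peaks up to 200 bp apart merged as well it was 1034, and up to 1 kb apart 2155. No merged region of the X chromosome, which the rule leaves out, reached 10 kb, and the longest of its 54 regions was 4.52 kb.

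The limit of 10 kb does not mark a break in the lengths. Just inside it lay regions of 10000 bp on chromosome 17 (87761713 to 87771712), 10001 bp on chromosome 7 (29541073 to 29551073) and 10006 bp on chromosome 2 (30405044 to 30415049). Just outside it lay regions of 9994 bp on chromosome 4 (154506469 to 154516462), 9992 bp on the same chromosome (41604581 to 41614572) and 9992 bp on chromosome 5 (114333240 to 114343231). The injury list covered 99.3%, 96.6% and 85.7% of the first 3, and the control list 74.6%, 96.9% and 98.5%. In the regions just below the limit the injury list covered 98.1%, 98.4% and 87.5%, and the control list 86.1%, 100% and 62.6%.

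Nearly every domain held peaks of both groups. Peaks of both lists were present in 628 of 654 domains (96.0%, 94.2 to 97.4%), where 28.7% of all merged regions held both. The injury list alone made up 24 domains (64.3% of all merged regions) and the control list alone 2 (7.02%). Overlapping peaks make a merged region longer, so a long region is more likely to hold both lists by the way it was built. In regions of 7.5 to 10 kb the share with both lists was already 90.6% (88.5 to 92.4%), and below 2.5 kb it was 11.2%.

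Injury-list peaks filled the domains more fully than control-list peaks. Over all domains the injury list covered 8.22 Mb (93.6% of the bases), the control list 6.65 Mb (75.7%) and both together 6.09 Mb (69.3%). In the median domain the injury list covered 97.2% and the control list 82.2%. The control list varied far more between domains, from 38.3% at the 10th percentile to 99.2% at the 90th, while the injury list ran from 81.4% to 100%. Coverage of at least 90% was reached by the injury list in 502 domains (76.8%, 73.3 to 79.9%). The share was 77.0% in regions of 7.5 to 10 kb and 79.9% in all merged regions. Of all merged regions, 64.3% held injury-list peaks only and reach it by definition, so 79.9% does not describe regions with both lists. The control list covered at least 90% in 240 domains (36.7%, 33.0 to 40.5%), against 22.6% of all merged regions. Coverage under 50% by the injury list was found in 6 domains (0.92%, 0.34 to 1.99%), against 8.59% of all merged regions. The control list covered under 50% in 97 domains (14.8%, 12.2 to 17.8%), against 66.1% of all merged regions, most of which held injury-list peaks only. The lists overlapped over more than 50% of the length in 528 domains (80.7%, 77.5 to 83.7%, against 23.7% of all merged regions), a count that the merging also favours. With peaks up to 1 kb apart merged, that share of domains was 44.3%.

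The injury list covered more bases than the control list in 476 of 654 domains (72.8%, 69.2 to 76.2%), and 78.3% of all merged regions had the same order. The control list covered more in 177 domains (27.1%, 23.7 to 30.6%, against 21.7% of all merged regions), and 1 domain had equal bases. Of all merged regions, 64.3% held injury-list peaks only, where the injury list covers more by definition. The share of 78.3% therefore does not show how often this order held among regions with both lists, which was not computed. In regions of 7.5 to 10 kb, of which 90.6% held both lists, the injury list covered more in 77.0% (74.1 to 79.7%). Per domain the injury list covered a median of 1.71 kb more than the control list, with quartiles of -0.11 and 4.34 kb. The surplus reached 4 kb in 182 domains for the injury list and in 16 for the control list. A surplus of 4 kb needs a region of at least that length, and these counts were not made over all merged regions. In bases, the injury list held 1.24 times as much as the control list inside domains and 2.12 times over all merged regions.

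**Figure D1:**
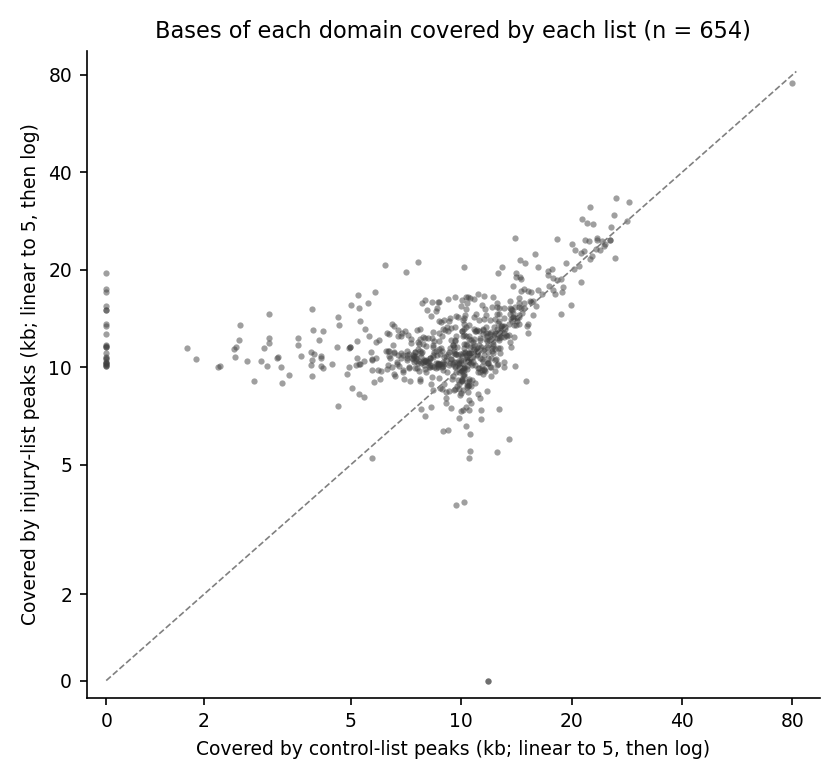
Each point is 1 of the 654 domains, placed by the kb covered by control-list peaks (x axis) and by injury-list peaks (y axis), both axes linear up to 5 kb and logarithmic above; the dashed line marks equal coverage. A total of 476 points lie above the line and 177 below it, and 24 stand at 0 on the control axis against 2 at 0 on the injury axis.

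Coverage by the control list was higher in longer regions, whereas coverage by the injury list was high at all lengths. The control list covered 20.9% of the bases in merged regions under 2.5 kb, 66.1% in those of 7.5 to 10 kb, 73.4% in domains of 10 to 12 kb and 83.5% in domains of 20 kb or more. The rise had 1 step down, to 72.4% in the 88 domains of 15 to 20 kb. The merging favours such a rise, since long regions form through overlap of the lists. Of the regions under 2.5 kb only 11.2% held both lists. The injury list covered 89.3%, 92.5%, 91.6% and 96.6% in the same 4 classes. In the 48 domains of 20 kb or more, all held peaks of both lists and 80.1% of the bases were in both. The injury list covered more bases in 33 of these 48 (68.8%, 53.7 to 81.3%) and in 75 of the 88 domains of 15 to 20 kb (85.2%, 76.1 to 91.9%), so the order of the lists did not follow length in a single direction.

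**Figure D2:**
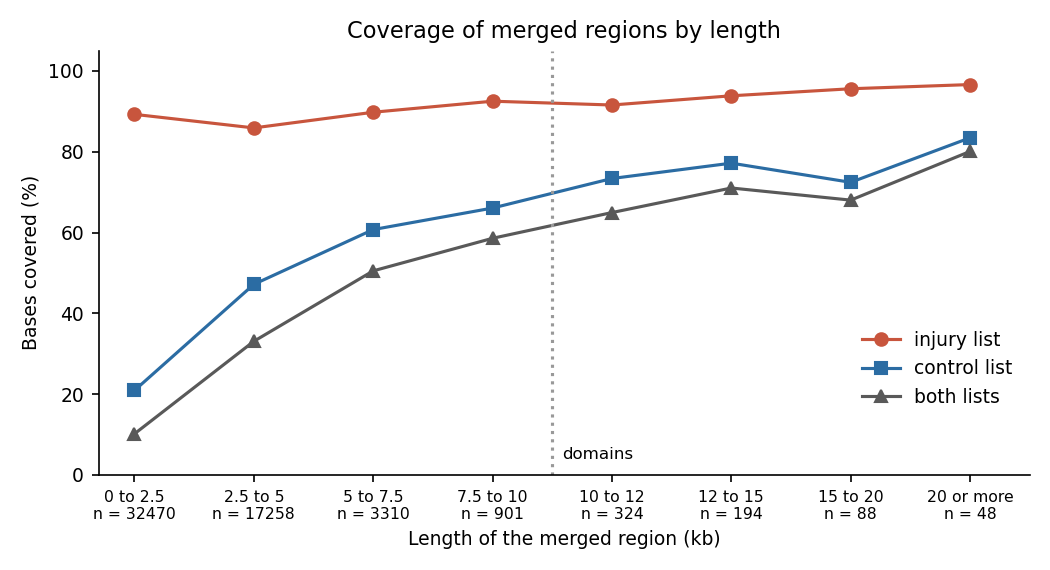
The share of bases (y axis, percent) covered by the injury list, the control list and both lists is drawn for merged regions in 8 classes of length (x axis, kb, with the number of regions); classes right of the dotted line are broad domains. The injury list stays between 85.9% and 96.6%, and the control list goes from 20.9% in the shortest to 83.5% in the longest class, a rise that the merging favours.

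The longest domains showed how differently the lists can be cut into peaks over the same DNA. The longest lay on chromosome 2 (77710619 to 77790297), where a single control-list peak of 79.7 kb with a score of 240.99 ran from end to end. The score is the peak caller's own value, the authors' and on the scale of its own list. In the injury list the same stretch was cut into 9 peaks, the largest number of any domain, which left 8 gaps of 37 to 1717 bp and together covered 94.96%. The widest of these 9, at 51.0 kb, was also the widest injury-list peak in any domain. The scores of the 9 peaks ran from 178.59 at the right edge and 200.07 at the left edge to 2479.33 for a peak of 2.68 kb inside the domain. Within this domain, the outermost injury-list peaks were thus the lowest in score.

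The next domain by length, 33.6 kb on chromosome 5 (114832375 to 114866007), was cut the other way. It held 6 control-list peaks, more than any other domain, of 3.31 to 6.70 kb each, with gaps of up to 4.26 kb, and 4 injury-list peaks of up to 11.7 kb. The control list covered 78.6% of it and the injury list 98.9%. The third, 32.7 kb on chromosome 5 (125493024 to 125525691), was covered at 87.9% by 3 control-list peaks and at 98.8% by 2 injury-list peaks, 1 of them 24.4 kb wide. Only 19.7 kb further along lay the fifth, 29.8 kb (125545383 to 125575135), with 87.5% covered by the control list and 99.5% by the injury list. The fourth, 31.2 kb on chromosome 8 (122860285 to 122891488), held 4 control-list peaks separated by gaps of 1.97 to 3.82 kb and 2 injury-list peaks that stood 11 bp apart. In these 4 domains, as the merging requires, injury-list peaks bridged the gaps between control-list peaks, and control-list peaks those between injury-list peaks.

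The remaining 5 of the 10 longest domains were covered at 73.8% or more by either list. On chromosome 8 (124072942 to 124101864, 28.9 kb) the coverage was nearly equal, 98.2% by control-list and 97.7% by injury-list peaks, although no single peak there exceeded 8.54 kb. That domain was a chain of 4 control-list and 6 injury-list peaks, with gaps of 22 to 62 bp between injury-list peaks and of 2 to 397 bp between control-list peaks. On chromosome 18 (83145624 to 83174507, 28.9 kb) the control list covered 73.8% and the injury list 99.5%. On chromosome 12 (114138887 to 114167002, 28.1 kb) the values were 81.1% and 98.9%. The domain on chromosome 17 (28137795 to 28165794, 28.0 kb) was a single injury-list peak with a score of 87.78, near the injury-list median of 87.34. It lay over 2 control-list peaks of 8.83 and 13.2 kb that scored 355.97 and 111.28 in their own list. On chromosome 2 (157283241 to 157311042, 27.8 kb) the control list covered slightly more, 91.4% against 88.7%.

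**Figure D3:**
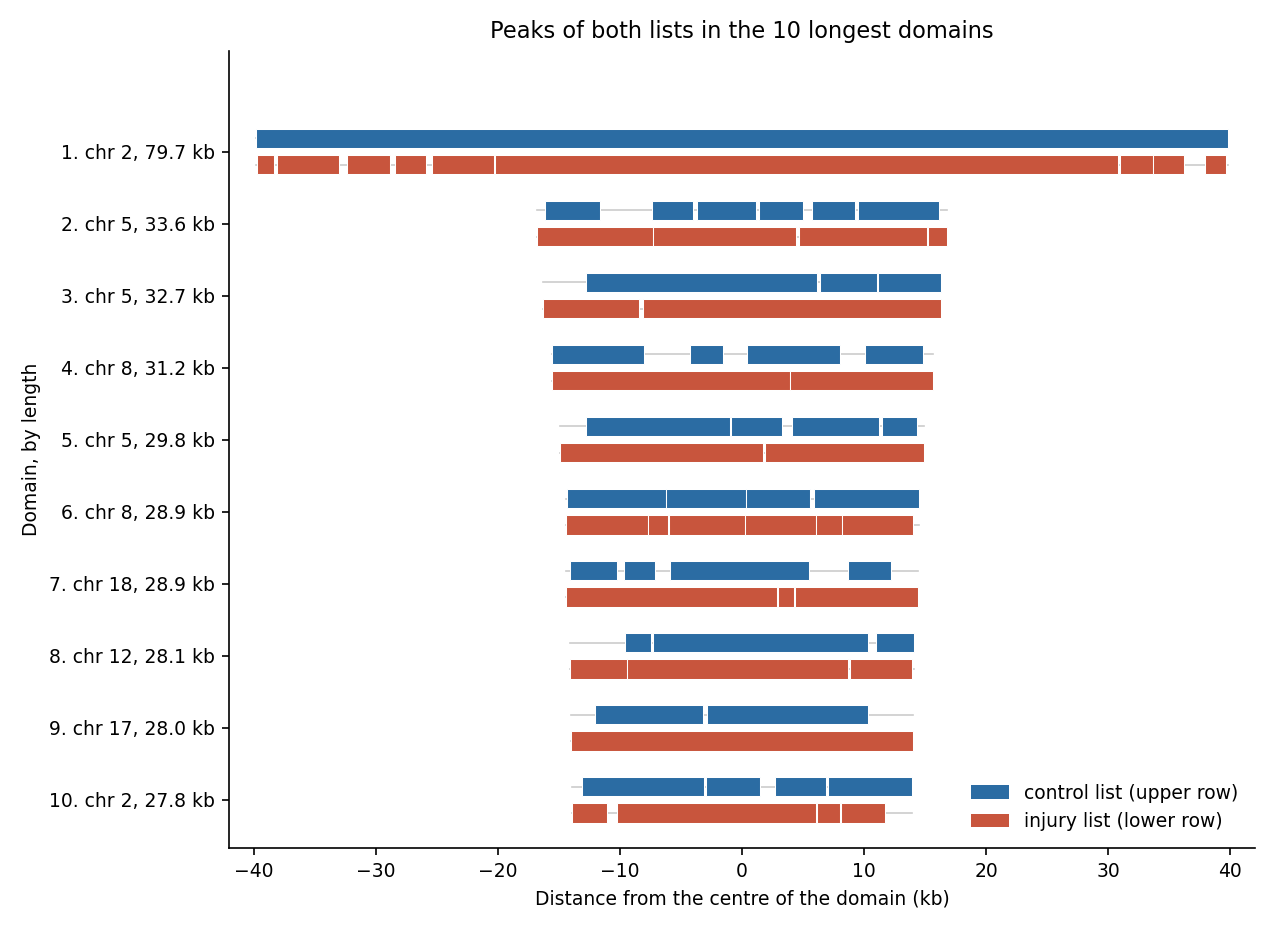
Injury-list peaks (lower row, red) and control-list peaks (upper row, blue) are drawn to scale in the 10 longest domains, against the distance from the domain's centre (x axis, kb); white slits and bare grey line are gaps between peaks. The 79.7 kb domain on chromosome 2 is cut into 9 injury-list peaks and is 1 control-list peak, and the 28.0 kb domain on chromosome 17 is 1 peak in the injury list and 2 in the control list.

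The name broad domain held for a single peak in 392 of the 654 regions, in which at least 1 peak alone reached 10 kb. A peak of each list did so in 61 domains (9.33%, 7.21 to 11.8%), an injury-list peak alone in 244 (37.3%, 33.6 to 41.1%) and a control-list peak alone in 87 (13.3%, 10.8 to 16.2%). The other 262 domains (40.1%, 36.3 to 43.9%) were chains of 2 to 10 shorter peaks, with a median of 4, and reached 10 kb only through the merging of the lists. The share with a wide single peak, 59.9% here, was 37.2% with peaks up to 200 bp apart merged, 16.6% with peaks up to 1 kb apart merged and 30.04% at a shortest length of 8 kb. It was 81.6% at a shortest length of 15 kb. The chains had a median length of 11.3 kb, against 16.3 kb where both lists had a wide peak. In the chains the control list covered 78.1% and the injury list 90.6% of the bases. A chain can form only from overlapping peaks of both lists, so coverage by both is partly given by the merging. Where only an injury-list peak reached 10 kb, the control list still covered 61.0% of the bases, and where only a control-list peak did, the injury list covered 85.1%.

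Single wide peaks of each list were also looked up in the other list, which had no part in choosing them. The control list had 148 peaks of 10 kb or more, and 146 of them (98.6%, 95.2 to 99.8%) overlapped an injury-list peak, while 81.3% (80.8 to 81.9%) of all control-list peaks did so. Injury-list peaks covered 89.5% of the bases of these wide control-list peaks and 72.3% of all control-list bases. The injury list had 309 peaks of 10 kb or more, and 285 (92.2%, 88.7 to 94.96%) overlapped a control-list peak, while 34.2% (33.8 to 34.6%) of all injury-list peaks did so. Control-list peaks covered 66.8% of the bases of these wide injury-list peaks and 34.1% of all injury-list bases. A wide peak has more room to meet any peak, which the shares of peaks do not correct for and the shares of bases do in part. Both shares of bases lay above those of their whole list.

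A wide peak of one list did not always meet a wide peak of the other. Of the wide control-list peaks, 61 (41.2%, 33.2 to 49.6%) overlapped an injury-list peak that was also at least 10 kb wide, and of the wide injury-list peaks 62 (20.1%, 15.7 to 25.0%) overlapped a wide control-list peak. A wide peak of the other list was met by 2.54% of all control-list and 0.58% of all injury-list peaks. Of the 148 wide control-list peaks, 101 (68.2%, 60.1 to 75.6%) lay over 2 or more injury-list peaks, against 11.5% of all control-list peaks. Of the 309 wide injury-list peaks, 175 (56.6%, 50.9 to 62.2%) lay over 2 or more control-list peaks, against 1.85% of all injury-list peaks. A wide peak has more room to meet several peaks of the other list, so its width alone raises these shares.

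A gap between neighbouring peaks of a list lies inside a merged region only where peaks of the other list bridge it, so the merging keeps such gaps short, and their length is bounded by the peaks of the other list. The control list had 1136 peaks in domains, 5.53% of its peaks with 10.6% of its bases, and 506 gaps between them with a median of 432 bp (quartiles 154 and 1134 bp). The injury list had 1236 peaks in domains, 2.32% of its peaks with 6.15% of its bases, and 584 gaps with a median of 202 bp (73 and 490 bp). In merged regions under 10 kb the medians were near these, at 318 bp over 571 gaps of the control list and 184 bp over 1998 gaps of the injury list. Between neighbouring peaks anywhere on the chromosomes, the median gap was 13.5 kb in the control list and 4.77 kb in the injury list. Inside the domains, gaps under 200 bp made up 29.4% (25.5 to 33.6%) of those in the control list and 49.8% (45.7 to 54.0%) of those in the injury list. Gaps of 2 kb or more were 13.8% (10.9 to 17.1%) and 2.91% (1.71 to 4.62%), and the widest were 12.1 and 5.80 kb. More injury-list peaks were held by 242 domains, more control-list peaks by 183 and equal numbers by 229, with 113 domains made of 1 peak from each list. These counts were not made over all merged regions, of which 64.3% held injury-list peaks only. Peaks of 1 list are joined only through peaks of the other, so the numbers are partly given by the merging. Domains held a mean of 1.74 control-list and 1.89 injury-list peaks, against 1.18 and 1.47 in regions of 7.5 to 10 kb.

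Of the 1308 outer ends of the domains, 825 (63.1%, 60.4 to 65.7%) were set by the injury list, against 77.7% of the ends of all merged regions. The control list set 483 (36.9%, 34.3 to 39.6%), against 22.3%. Most merged regions held injury-list peaks only, which then set both ends. Among regions with both lists, the injury list set 61.9% (59.1 to 64.6%) of the ends of domains, 65.1% (62.7 to 67.4%) of the ends of regions of 7.5 to 10 kb and 46.6% (46.0 to 47.1%) of the ends of regions of any length. Both ends came from the injury list in 270 domains, both from the control list in 99, and 1 from each in 285. In domains with both lists, the injury list reached past the control list at 777 ends by a median of 948 bp (quartiles 251 and 2560 bp), and by 2 kb or more at 247. The control list reached past the injury list at 479 ends by a median of 232 bp (97 and 828 bp), and by 2 kb or more at 34. The longest reach was 14.4 kb for the injury list and 6.52 kb for the control list. The reach past the other list was not measured in shorter merged regions.

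With every domain scaled to the same length, coverage was high over the inner part and lower toward the ends in both lists. In the middle 10% of the length the control list covered 80.5% and the injury list 95.6%. In the outermost 5% on each side the control list covered 54.2% and the injury list 82.2%. The lists thus differed by 15.1 percentage points at the centre and by 28.0 at the ends. No end was set by both lists, so at each end the list that did not set it is absent. A fall toward the ends is therefore favoured by the merging in both lists. The injury list set 825 of the 1308 ends, so the wider difference at the ends is also partly given by the merging. Just outside the ends coverage falls by the way domains are defined, to 11.2% and 26.0% in the first kb. At 9 to 10 kb outside control-list peaks covered 31.8% and injury-list peaks 50.5%, so the surroundings of a domain were themselves rich in peaks.

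**Figure D4:**
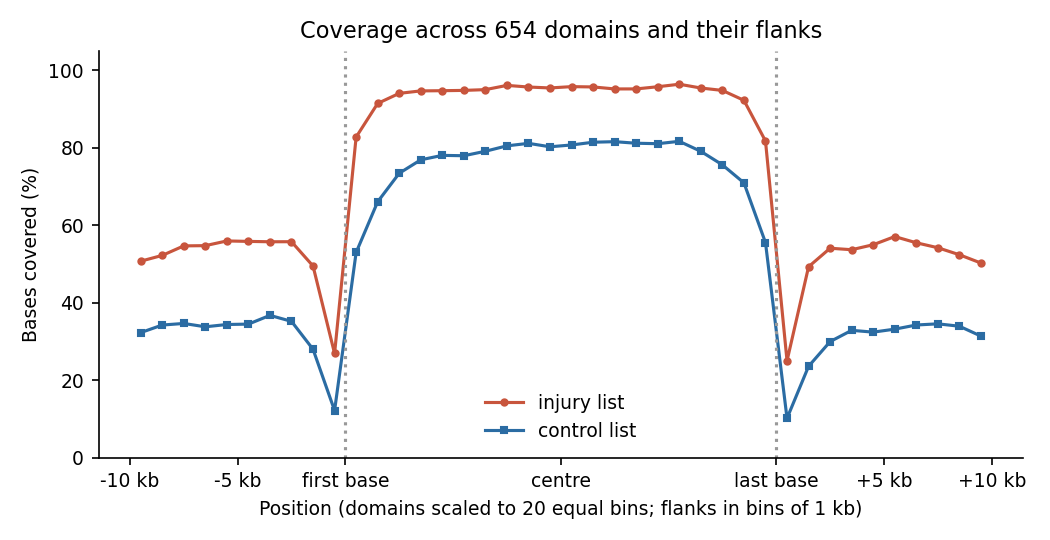
The share of bases covered by each list (y axis, percent) is drawn along the 654 domains, each scaled to 20 equal bins, and along 10 kb on either side in bins of 1 kb (x axis). The injury list is at 82.2% in the outermost 5% and 95.6% in the middle, the control list at 54.2% and 80.5%, and both dip in the first kb outside. The merging favours the fall toward the ends.

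Domains stood in peak-rich surroundings and often next to each other. Of the 10 kb on each side of a domain, control-list peaks covered 30.6% and injury-list peaks 50.9%, compared with 20.7% and 39.4% beside merged regions of 5 to 10 kb and 11.3% and 24.0% beside all merged regions. The next domain was a median of 72.2 kb away (quartiles 10.5 and 433.2 kb). From a merged region of 5 to 10 kb the nearest domain was a median of 241.3 kb away. Another domain lay within 10 kb of 160 domains (24.5%, 21.2 to 28.0%) and within 100 kb of 350 (53.5%, 49.6 to 57.4%). For regions of 5 to 10 kb these shares were 10.1% (9.22 to 11.1%) and 35.5% (34.1 to 37.0%). At the other extreme, 92 domains (14.1%, 11.5 to 16.97%) were 1 Mb or more from the next.

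The 160 domains with a close neighbour formed 68 runs, and in 30 places neighbouring domains were under 500 bp apart. The runs with the most domains had 5 and were chosen after their values were seen. One spanned 106.9 kb on chromosome 17 (27491162 to 27598087), of which 92.9 kb were domains, covered at 82.9% by the control list and at 98.0% by the injury list. The other spanned 83.0 kb on chromosome 8 (123028701 to 123111710), covered at 85.0% and 87.1% of its domain bases. A run of 4 domains on the same chromosome (122860285 to 122949142) was longer, at 88.9 kb, with 78.8% of its domain bases covered by the control list and 98.7% by the injury list.

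Some megabases held many domains. A total of 302 windows of 1 Mb held a domain, among 1823 that held any merged region, and 161 of them held a single one. The 26 windows with 5 or more held 192 domains (29.4%, 25.9 to 33.0%). The fullest was chromosome 17 from 30 to 31 Mb, where 16 of 104 merged regions (15.4%) were domains, with 252.0 kb in all. The control list covered 85.3% of these bases and the injury list 89.7%, and the injury list covered more in 7 of the 16. Next were 11 domains on chromosome 8 from 122 to 123 Mb, covered at 78.4% and 96.3%, with more injury-list bases in 9, and 11 on chromosome 17 from 27 to 28 Mb, covered at 78.5% and 96.9%, with more in 7.

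The fullest window put domains of opposite order next to each other. On chromosome 17 a domain of 15.1 kb (30643058 to 30658120) was in the injury list alone, as a single peak with a score of 753.85. At 25.2 kb to its right, a domain of 19.98 kb (30683286 to 30703264) was covered at 99.7% by the control list and at 77.7% by the injury list. Further along, a domain of 13.5 kb (30767085 to 30780587) was covered wholly by 1 control-list peak and at 44.5% by 2 injury-list peaks. Its neighbour of 15.6 kb (30787283 to 30802890) was covered at 96.0% by the control list and at 58.2% by the injury list. Of the last 4 domains of the window, 3 were covered at over 95% by both lists, among them that of 24.0 kb (30981393 to 31005349) with 99.8% by control-list and 95.9% by injury-list peaks. This domain was a single control-list peak of 23.9 kb with a score of 79.14, below the median of its list, over 3 injury-list peaks with scores of 508.37 to 1413.76.

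The domains with the greatest surplus of injury-list bases were all single injury-list peaks without a control-list counterpart. The widest of them, 19.6 kb on chromosome 5 (114808695 to 114828271), scored 614.16. A peak of 17.5 kb on chromosome 12 (109493225 to 109510705) followed with a score of 129.94. Chromosome 5 held another pair, of 17.04 kb (115968580 to 115985616) with a score of 452.56 and of 15.4 kb (115122626 to 115138049) with 633.68, and the fifth was the 15.1 kb domain on chromosome 17 above. The widest ended 4.10 kb before the 33.6 kb domain of chromosome 5 began, so that a stretch in the injury list alone adjoined the second longest domain of both lists. Domains with no control-list peak numbered 24 in all, none longer than 19.6 kb.

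The domains with the greatest surplus of control-list bases were shorter. The 2 domains without any injury-list peak each held a lone control-list peak. That on chromosome 2 (25291577 to 25303432) was 11.9 kb wide and scored 439.53, and that on chromosome 11 (117013710 to 117025540) was 11.8 kb wide and scored 376.93. Both scores lay in the top 10% of the control list, which begins at 200.96. The 13.5 kb domain on chromosome 17 described above followed, with 7.49 kb more in the control list. A domain of 12.5 kb on chromosome 1 (183757506 to 183770032) had 2 control-list peaks over 99.8% of its length and 3 injury-list peaks over 43.8%. Another on chromosome 1 (169201143 to 169212400, 11.3 kb) rested on a control-list peak of 10.2 kb with a score of 59.22, near the lowest score of its list, with 36.8% of the domain in the injury list.

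Domains rich in peaks of 1 list were covered by both. The merging requires this in part, since peaks of 1 list are joined only through peaks of the other. After the 33.6 kb domain, the largest numbers of control-list peaks were 5 on chromosome 2 (167577507 to 167603006, 25.5 kb) and 5 on chromosome 11 (117135489 to 117158481, 23.0 kb). The control list covered 91.8% of the former and 69.2% of the latter, and the injury list 96.6% and 97.5%. After the longest domain, the largest numbers of injury-list peaks were 6 in the 28.9 kb chain on chromosome 8 and 6 on chromosome 2 (164947621 to 164975005, 27.4 kb), covered at 89.99% by the control list and at 87.7% by the injury list.

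Peaks in domains scored high within their own list, but a wide peak was not always a high-scoring one. In the control list the median score was 137.81 for peaks in domains and 77.94 for the others, and 31.0% (28.3 to 33.8%) of the peaks in domains were among the top 10% of the list. In the injury list the medians were 270.78 and 86.26, and 55.3% (52.5 to 58.1%) were among the top 10%. The rule for domains favours wide peaks, and no comparison with other peaks of like width was made. Of the 100 highest-scoring peaks, 51 of the injury list lay in domains, with a median width of 7.89 kb for the whole 100, and 16 of the control list, with a median width of 4.93 kb. At the low end, 12 of the 148 wide control-list peaks and 22 of the 309 wide injury-list peaks scored below the median of their list. In domains with several peaks of a list the widest was also the highest-scoring in 262 of 374 (70.1%, 65.1 to 74.6%) for the control list and in 285 of 383 (74.4%, 69.7 to 78.7%) for the injury list. The highest score in such a domain was a median of 3.01 times the lowest for injury-list and 2.04 times for control-list peaks, so the pieces of a domain differed in score.

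Domains were spread unevenly over the chromosomes. There were 0.28 per Mb over all autosomes, from 0.68 on chromosome 17 (60 domains) to 0.04 on chromosome 14 (5 domains), a 15.6-fold range, whereas merged regions of all lengths ranged 2.51-fold per Mb. Chromosomes 5 (81 domains), 4 (72), 8 (61), 17 (60), 2 (58) and 11 (58) held 390 (59.6%, 55.8 to 63.4%) of the domains and 43.6% of all merged regions. The share of merged regions that were domains was 2.09% (1.60 to 2.68%) on chromosome 17 and 1.78% (1.41 to 2.20%) on chromosome 5, but 0.32% (0.13 to 0.66%) on chromosome 3 and 0.28% (0.09 to 0.64%) on chromosome 14. Domains made up 10.2% of the peak-covered bases of chromosome 17 and 1.27% of those of chromosome 14.

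Over all merged regions the injury list held 2.12 times the bases of the control list, a ratio not computed by chromosome. Inside domains the injury list covered more bases than the control list on 18 of the 19 autosomes. The exception was chromosome 14, where the control list covered 95.4% and the injury list 84.2%, but that chromosome had 5 domains, of which 2 had more injury-list bases. The lists were farthest apart on chromosome 13, with 62.5% and 97.7% over 11 domains, and chromosome 6, with 66.9% and 98.3% over 10 domains. On both, all domains had more injury-list bases (chromosome 13, 71.5 to 100%; chromosome 6, 69.2 to 100%). Among chromosomes with 30 or more domains, the share of domains with more injury-list bases was highest on chromosome 12 (34 of 38, 89.5%, 75.2 to 97.1%) and chromosome 8 (49 of 61, 80.3%, 68.2 to 89.4%). It was lowest on chromosome 11 (34 of 58, 58.6%, 44.9 to 71.4%), chromosome 10 (20 of 34, 58.8%, 40.7 to 75.4%) and chromosome 17 (36 of 60, 60%, 46.5 to 72.4%). The intervals of chromosomes 12 and 11 do not overlap, but they were picked as extremes and no test of the difference was made. Over all merged regions the injury list covered more in 78.3%, and this share was not computed by chromosome. These counts therefore do not show whether domains differ from the other regions of their chromosome.

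**Figure D5:**
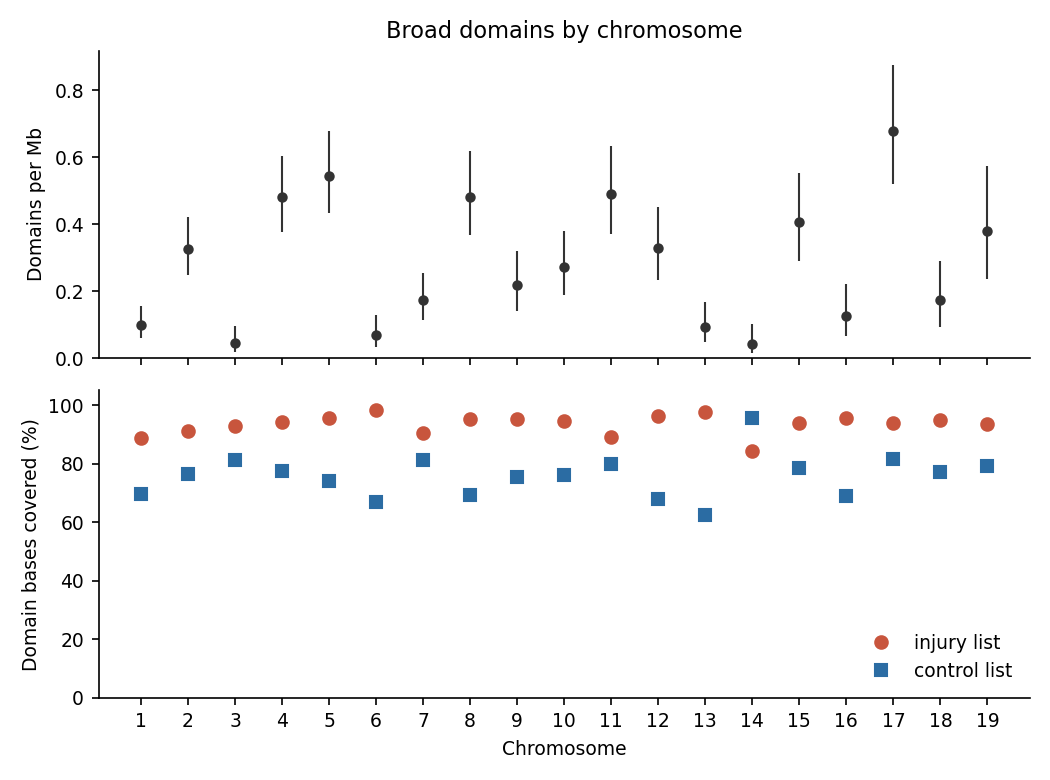
The upper panel gives the number of domains per Mb of each autosome (x axis), counted from its first to its last peak, with exact Poisson 95% intervals, and the lower panel the share of domain bases covered by each list (percent). Chromosome 17 has the most domains per Mb, 0.68, and chromosome 14 is the only one where the control list, at 95.4%, lies above the injury list.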

How the data were processed

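Brain DNA of 6 mice, 3 per group, was enriched for 5hmC by hMe-Seal and sequenced, per the labels. Tools named in the submitters' processing notes are MACS 1.4.2, Bowtie 0.12.9 and CASAVA 1.4, with the build mm9 and no settings. The authors deposited 1 list per group with peak positions and a score per peak, at least 50 in both lists. The depth, whether an input control was used and whether mice were pooled for peak calling are not stated there. A caller that joins enriched windows splits a broad region wherever signal dips below its threshold, so peak numbers and widths depend on depth. Scores were therefore compared within a list only, except that cutoffs taken from control-list scores were applied to both lists in the closing section.

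Peaks on chromosomes 1 to 19 were pooled and merged at an overlap of 1 bp. Bases covered, gaps and ends were counted with Python 3.11.15, numpy 2.4.6, pandas 2.3.3 and scipy 1.17.1, and drawn with matplotlib 3.10.9. Merging was tested on simulated peaks (100% of 1300 planted regions recovered) and on chromosome 19 base by base (0 mismatches over 1654 regions). Intervals are exact Poisson or Clopper-Pearson at 95%. No test was made. Positions count from 1. Peaks on chromosome 7 reach 152.5 Mb, past the last gene of the GRCm38 table (145.3 Mb), so that table and its sequences were not used.

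Regions named were the 10 longest domains, the 5 with the highest and the 5 with the lowest injury minus control bases, the 3 with the most peaks of each list, the 3 longest in 1 list alone, the 3 regions on either side of 10 kb, the widest peak of each list and the 3 windows of 1 Mb with the most domains. Members and rules were chosen with earlier results of these data known.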

Additional observations from a re-analysis of the deposited data

How the results depend on the processing

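No paired analysis was possible because the lists hold no values of single mice, and leaving out a mouse could not be tried either. A share was counted as moved when it left the exact binomial 95% interval of its main value, taken over 654 domains, and a number of domains when it changed by more than 1.5 times. For shares of bases this interval is only a fixed margin and does not measure their error. Of 81 recomputed values 28 stayed and 53 moved, and the injury list covered more bases in over 50% of the domains under every setting that gave this share. Among the 28, control-list coverage of the same domains with only the injury list reduced (75.73%) could not change. Each setting acts on the values by construction. A lower or higher limit of length adds or removes regions, and merging across gaps adds bases of neither list to a domain. Score cutoffs and the reduced list remove peaks, and a needed overlap of 500 bp leaves some peaks unjoined. How much of each move comes from this was not tested. With peaks up to 200 bp apart merged there were 1034 domains, with peaks up to 1 kb apart 2155, from the control list alone 148, from the injury list alone 309, at a shortest length of 15 kb 136 and at 8 kb 1305.

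In the order control median score (79.7, both lists), 75th percentile of control scores (120.4), merging up to 200 bp and merging up to 1 kb, the control list covered 69.68%, 62.27%, 67.35% and 54.6% of the domain bases, and both lists together 62.08%, 53.28%, 60.99% and 47.39%. In the same order, 1 peak alone reached 10 kb in 64.69%, 71.19%, 37.23% and 16.57% of domains (59.9% in the main values), and the lists overlapped over most of the bases in 71.33%, 59.71%, 66.92% and 44.32%. Peaks of both lists were present in 90.91% of domains at the median score, 80.17% at the 75th percentile, 92.16% with merging up to 1 kb, 94.1% at 8 kb and 84.25% when each list had to cover at least 50% of the domain. The injury list covered 91.01% of the bases at the 75th percentile, 89.6% when it was reduced to its 20555 highest-scoring peaks, 87.51% with merging up to 1 kb and 96.06% at 15 kb. It covered more bases than the control list in 79.69% of domains with merging up to 200 bp, 84.45% up to 1 kb, 79.41% at 15 kb and 64.42% with the reduced list. Domains held 8.921% of the pooled bases at the 75th percentile, 8.036% with the reduced list, 9.662% and 22.1% with merging up to 200 bp and 1 kb, 1.78% at 15 kb and 9.619% at 8 kb.

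Both lists covered 73.51% at 15 kb and 65.59% at 8 kb; 1 peak alone reached 10 kb in 81.62% at 15 kb, 30.04% at 8 kb and 69.8% when an overlap of 500 bp was needed to join peaks; and the lists overlapped over most of the bases in 85.29% at 15 kb, 74.18% at 8 kb and 77.27% with the reduced list. In alternatives added after the data were seen, coverage was recounted inside the same 654 domains. With the reduced injury list it was 84.3%, with more injury-list bases in 60.7% of domains, and with peaks at or above the control median score it was 65.08% for the control and 88.52% for the injury list. The reduced list was chosen by score, so it does not put the lists at equal depth. Cutoffs on control-list scores applied to both lists assume a shared scale of scores, which was not checked.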
